A study of Mus musculus with 800 samples.

Results

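The cells described here are labelled single cells of the embryonic mouse retina that carry transcript of the neuropeptide gene Tac1, called Tac1+ cells below. Both groups compared, Tac1+ cells and Tac1-zero cells, are Tomato+ cells of the same sort. Their retinas came from C57BL/6 Sert-Cre embryos at stage E15.5, that is, embryonic day 15.5. They therefore share strain, driver, stage and dissociation, and are told apart by measured Tac1 counts alone. Retinas were pooled before dissociation with papain and flow sorting, no animal is named for any cell, and the sorting gate is not described. Sert-Cre expresses Cre under the control of Slc6a4, the serotonin transporter gene, and the table holds no row for Cre or Tomato, so the label itself could not be measured. Of 800 cells in the series, 400 each were Tomato+ and Tomato-. Cells were kept where at least 1000 genes were detected and mitochondrially encoded genes took at most 20% of the counts. This removed 73 Tomato+ and 38 Tomato- cells and kept 689 cells. Tac1+ cells are the 89 kept Tomato+ cells chosen by at least 5 Tac1 counts, which is 27.2% of kept Tomato+ cells (exact 95% Clopper-Pearson interval 22.5 to 32.4%) and 89 of the 800 cells in all. They are set against the kept Tomato+ cells with 0 Tac1 counts, which make up 64.8%, and the 26 cells with 1 to 4 counts are in neither group. Tac1 levels are therefore a description.

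Tac1 encodes protachykinin, the precursor of the neuropeptides substance P and neurokinin A. In the mature retina these peptides are known mainly from amacrine cells, with some retinal ganglion cells (RGCs) also making them. The precursor is cut by prohormone convertases, trimmed by carboxypeptidase E, stored in dense-core vesicles and, once released, acts on tachykinin receptors. RGCs are the projection neurons of the retina, and in the embryo Slc6a4 is known from RGCs, among them those that project to the brain without crossing the midline.

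No p-value was made from cells, since each group is 1 sample. Cell titles carry a number from 1 to 10 in Tomato+ cells, called the title number here, and every title number held both kinds of cell. Ratios were therefore repeated within each title number, and their standard deviation (SD) between title numbers is given as the spread. What a title number stands for is not stated, so it is no replicate. Title numbers 8 and 10 lost most cells to the filter, with 27 and 24 kept against 33 to 38 in the others. Without both, 28.6% of kept Tomato+ cells were Tac1+, and the log2 ratios described below were 1.20 for Gal, 1.06 for Chkb, 0.54 for Slc6a4 and 0.61 for Ubash3b. Levels are CPM, the counts of a group's cells summed and scaled to a common total. If reads rather than molecules were counted, which is not stated, levels of different genes can also reflect transcript length. Log2 ratios are Tac1+ over Tac1-zero cells with 10 CPM added to both. Intervals are exact and cover counting error only.

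Depth differed between the groups and touches every share of cells below. The median total was 294527 counts in Tac1+ cells and 265942 in Tac1-zero cells, while a median of 4843 genes was detected per Tac1+ cell and 4445.5 per Tac1-zero cell. Of 8583 genes tested, 87.6% were at 5 or more counts in a larger share of Tac1+ cells, with a median difference of 6.25 percentage points. After each cell was thinned to 94783 counts, 65.3% of genes still leaned that way, with a median difference of 1.93 points. Thinning left out 2 Tac1+ and 26 Tac1-zero cells that were shallower. Most shares are therefore given with their thinned values; those within the sets split by Eomes are not thinned. The part of depth in the remaining lean was not tested.

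Tac1 lies on chromosome 6 from 7555061 to 7562978, on the plus strand (GRCm38.p6, RefSeq). GENCODE vM21 places the start of its first transcript upstream of this, at 7554879. The median Tac1+ cell had 37 Tac1 counts, with quartiles of 20 and 75. Scaled to each cell's total, the lowest cell was at 14.99 CPM, the median at 131.99 CPM and the highest at 968 CPM. Just inside the limit lay 12 cells with 5 to 9 counts, and just outside it lay 12 cells with 2 to 4 and 14 with 1. At the top, 19 cells held 100 counts or more, and the 10 highest cells held 39.2% of all Tac1 counts of Tomato+ cells. Tac1+ cells together held 99.2% of these counts. Of the 73 Tomato+ cells removed by the filter, 3 also reached 5 Tac1 counts.

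Tac1+ cells occurred in each of the 10 title numbers, at 4 to 14 cells. Their share of kept cells was 16.7% at the lowest, 26.9% at the median and 40.0% at the highest. The intervals of the single shares overlapped, the lowest share having an interval of 4.74 to 37.4% and the highest one of 23.9 to 57.9%. The summed Tac1 level of Tac1+ cells ran from 132.5 to 370.02 CPM over title numbers, with a median of 177.6 CPM.

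**Figure D1:**
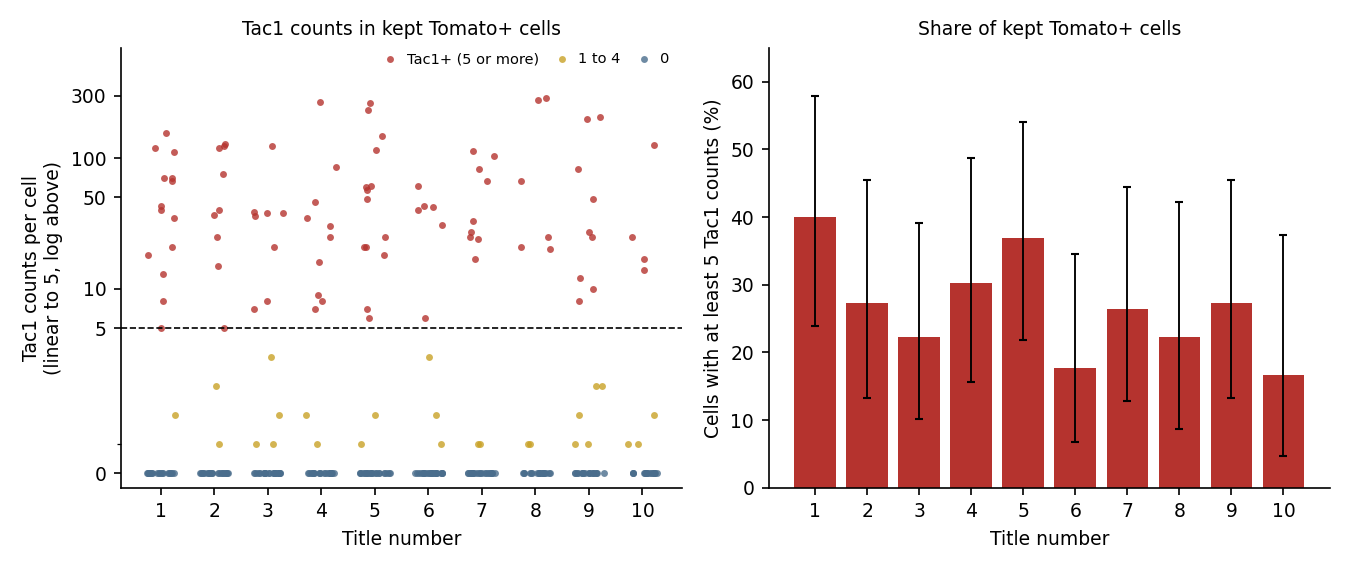
Left, Tac1 counts of each kept Tomato+ cell by title number (1 point a cell, the axis linear up to 5 and logarithmic above, the dashed line at 5 counts). Right, the share of kept cells with at least 5 counts, with exact 95% intervals. Every title number holds Tac1+ cells, between 16.7% and 40.0% of its cells, and most other cells have 0 counts.

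Tac1 was far more frequent in Tomato+ than in Tomato- cells, although those Tac1 levels also chose the cells. The summed level was 64.1 CPM (62.5 to 65.8) in Tomato+ cells and 6.43 CPM (5.93 to 6.96) in Tomato- cells. The share with at least 5 counts was 27.2% of kept Tomato+ cells and 2.49% (1.14 to 4.67), or 9 cells, of kept Tomato- cells. With all cells thinned to 94783 counts, 23.5% of Tomato+ cells reached 5 counts, against 2.15% of Tomato- cells. Title numbers of Tomato- cells lay between 0 and 8.33%, with 4 of them at 0, below every Tomato+ title number. Most kept Tomato- cells had at least 5 counts of Fgf15, a progenitor gene, while nearly all Tac1+ and Tac1-zero cells carried RGC markers. The shares above thus compare different mixes of cells. Tac1 was not measured in Tomato- RGCs alone, and the part of cell type in the gap was not tested. The Tomato- cells with at least 5 Fgf15 counts are given for comparison. Of these cells, 3 were among the 9 Tomato- cells with at least 5 Tac1 counts, which carried RGC genes as described below. Whether Tac1 counts in the Fgf15 cells come from free RNA was not tested. At least 1 Tac1 count was found in 35.2% of Tomato+ cells and 7.14% of these Fgf15 cells, and at least 5 in 27.2% of Tomato+ and 1.53% of Fgf15 cells. The median totals were 271789 counts in Tomato+ cells and 237829 in the Fgf15 cells.

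The label of these cells as RGCs was checked against markers. All 89 Tac1+ cells, and all but 1 of the Tac1-zero cells, had at least 5 counts of 3 or more of 14 RGC markers. Some of these markers, such as Stmn2 and Gap43, are also genes of growing axons. Passing this limit therefore does not by itself tell RGCs from other young neurons. Sncg, a synuclein abundant in RGCs, was at 6699 CPM in Tac1+ and 6531 CPM in Tac1-zero cells, a log2 ratio of 0.04. Nefm, a neurofilament subunit, was at 2949 CPM in Tac1+ and 2663 CPM in Tac1-zero cells. Pou4f2, a POU factor of RGC differentiation, was at 123.3 CPM in Tac1+ and 113.5 CPM in Tac1-zero cells. It reached 5 counts in 77.5% of Tac1+ and 57.5% of Tac1-zero cells, and after thinning in 66.7% of Tac1+ and 52.2% of Tac1-zero cells. Without thinning, 12.4% of Tac1+ and 28.8% of Tac1-zero cells had 0 Pou4f2 counts. Over the 13 RGC markers tested the median log2 ratio was 0.06, beside 0.00 over all genes tested, and 0 were 2-fold apart.

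Amacrine cells, the other retinal neurons known for tachykinins, were looked for among the Tac1+ cells. Only 1 Tac1+ and 1 Tac1-zero cell reached 5 counts of 3 or more of 14 amacrine markers. The summed level of these markers was 53.2 CPM in Tac1+ cells (5.29 to 125.6 over title numbers) and 73.4 CPM in Tac1-zero cells (25.1 to 291.6). Gad1, Slc32a1 and Chat, of GABA and acetylcholine transmission, had 0 counts in both groups, and Gad2 was at 19.1 CPM in Tac1+ and 17.9 CPM in Tac1-zero cells. Markers of blood cells were looked at too. The summed level of 8 erythroid markers was 717 CPM in Tac1+ cells (0.756 to 3214) and 2437 CPM in Tac1-zero cells (1.76 to 15047), ranges over title numbers that overlapped. Cells with at least 100 counts of the embryonic globin Hbb-y were 2 of the Tac1+ and 5 of the Tac1-zero cells. Without these cells the log2 ratio of Gal, described below, was 1.06 in place of 1.07.

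The 9 Tomato- cells with at least 5 Tac1 counts held 20 to 49 of them in 5 cells, fewer in 1 and more in 3. All 9 had at least 5 counts of Sncg, Nefm, Isl1, Stmn2 and Gap43, genes of RGCs and growing axons, and 4 had Pou4f2. None reached 5 counts of Eomes or Tfap2b, 5 had Gal, 5 had Ubash3b and 1 had Slc6a4. In 5 of them Top2a, a gene of dividing cells, also reached 5 counts, and in 3 of them Fgf15 did. These cells thus carried RGC genes, while Slc6a4 was under 5 counts in 8 of 9. Among labelled cells, 55.1% of Tac1+ and 30.2% of Tac1-zero cells reached 5 Slc6a4 counts.

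Few genes passed the limits set for a difference between Tac1+ and Tac1-zero cells. A gene was called where its log2 ratio was 1 or more in size and its share of cells with at least 5 counts differed by at least 10 points the same way. This held for 15 of 8583 genes as higher in Tac1+ cells (0.175%) and for 1 gene as lower (0.0117%). By the 2-fold limit alone, 27 genes were higher (0.315%) and 35 lower (0.408%). Log2 ratios had a median of 0.00 and an SD of 0.34 over genes, while the spread of one gene between title numbers had a median SD of 0.99. The log2 ratio was larger than that SD in 83 genes in either direction (0.967%). More genes were lower than higher by the 2-fold limit alone and with thinned cells, but not in the other alternatives. With thinned cells 7 genes were called higher and 8 lower. Leaving out 1 title number at a time gave 15 to 32 genes higher and 2 to 8 lower, the highest of both without title number 5.

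The other genes named with Tac1 for these cells, Ubash3b, Car10 and Lmo2, were not called. They lie on chromosomes 9, 11 and 2. Ubash3b, a phosphatase that dampens receptor signalling, came nearest. It was at 470.7 CPM (462.6 to 478.8) in Tac1+ cells and 297.7 CPM (293.1 to 302.4) in Tac1-zero cells, a log2 ratio of 0.64 with an SD of 0.83 between title numbers. Single title numbers lay between 270.3 and 966.9 CPM (median 437.2) in Tac1+ cells and between 142.3 and 474.9 CPM (median 262.2) in Tac1-zero cells. The ranges overlapped, and Tac1+ cells were higher in 7 of 10 title numbers. At least 5 counts were present in 83.1% of Tac1+ and 65.1% of Tac1-zero cells, and after thinning in 77.01% of Tac1+ and 63.4% of Tac1-zero cells.

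Car10, an inactive relative of carbonic anhydrases that binds neurexins, was seen in few cells of either kind. It was at 31.1 CPM in Tac1+ and 24.7 CPM in Tac1-zero cells, a log2 ratio of 0.25 (SD 1.022) that turned to -0.03 without title number 2. The share with at least 5 counts was 17.98% of Tac1+ cells (10.6 to 27.5) and 13.2% of Tac1-zero cells (8.96 to 18.5), and the 3 highest Tac1+ cells held 51.4% of the Tac1+ counts. After thinning 14.9% of Tac1+ and 12.9% of Tac1-zero cells reached 5 Car10 counts. By title number it lay between 6.96 and 107.8 CPM in Tac1+ cells and between 13.03 and 45.96 CPM in Tac1-zero cells, with 4 of 10 higher in Tac1+ cells. Lmo2, a LIM-domain adaptor of transcription factor complexes known from blood formation, also overlapped between the groups. It was at 85.9 CPM in Tac1+ and 77.1 CPM in Tac1-zero cells, a log2 ratio of 0.14 (SD 1.07) that turned to -0.03 without title number 1. The share at 5 counts or more was 47.2% of Tac1+ cells (36.5 to 58.1) and 38.2% of Tac1-zero cells (31.6 to 45.1), and after thinning 41.4% of Tac1+ and 34.9% of Tac1-zero cells.

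Few cells carried the whole set. All 3 of these genes reached 5 counts in 9 Tac1+ cells (10.1%) and 10 Tac1-zero cells (4.72%), and after thinning in 8.05% of Tac1+ and 3.76% of Tac1-zero cells. At least 2 were found in 50.6% of Tac1+ and 34.9% of Tac1-zero cells, and after thinning in 42.5% of Tac1+ and 33.9% of Tac1-zero cells. Because Ubash3b, Car10 and Lmo2 all differed by less than their spread, the cells are named here for Tac1 alone. Lists of genes that work with these 3 each also hold Ubash3b, Car10 or Lmo2 itself, so their values are not those of partners alone. Log2 ratios were above 0 in 2 of 3 tested genes of the Ubash3 and Cbl list, 6 of 7 of the neurexin list and 2 of 7 of the Lmo list. The medians of these lists were 0.03, 0.04 and -0.16, and 0 genes were called.

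**Figure D2:**
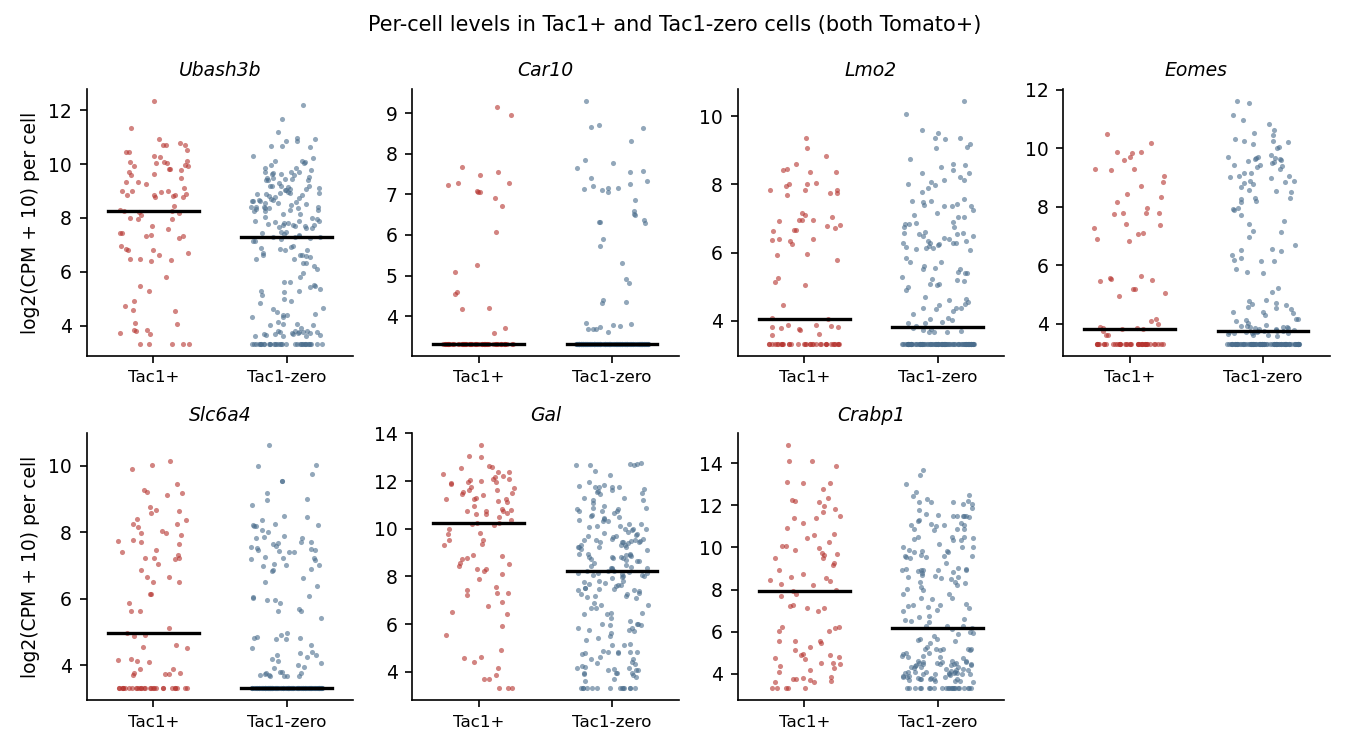
Levels of 7 genes in each of the 89 Tac1+ cells and each Tac1-zero cell as log2(CPM + 10) per cell (1 point a cell, the bar at the median). Ubash3b, Slc6a4, Gal and Crabp1 have higher medians in Tac1+ cells, while Car10 sits at 0 counts in most cells of both kinds and Lmo2 and Eomes have close medians.

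Eomes, a T-box factor needed for intrinsically photosensitive RGCs, was found in Tac1+ and Tac1-zero cells at shares whose intervals overlapped. At least 5 Eomes counts were found in 34 of 89 Tac1+ cells, or 38.2% (28.1 to 49.1), and in 72 Tac1-zero cells, or 33.96% (27.6 to 40.8). Read the other way, 28.6% (20.7 to 37.6) of kept Tomato+ cells with Eomes were Tac1+, beside 27.2% of all kept Tomato+ cells. The order of the shares depended on the limit and depth. With at least 1 Eomes count they were 53.9% of Tac1+ and 55.7% of Tac1-zero cells, and after thinning 31.03% of Tac1+ and 32.8% of Tac1-zero cells reached 5 counts. The summed Eomes level was 164.5 CPM in Tac1+ and 207.7 CPM in Tac1-zero cells, a log2 ratio of -0.32 (SD 1.36), with 8 of 10 title numbers lower in Tac1+ cells. The share of Tac1+ cells with Eomes ran from 0 to 57.1% over title numbers.

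Among other neuropeptides, Gal, the galanin gene on chromosome 19, was the called one. It was at 2066 CPM (2049 to 2083) in Tac1+ cells and 980.4 CPM (971.9 to 988.9) in Tac1-zero cells, a log2 ratio of 1.07. Title numbers 1 to 10 had 1582, 2478, 3195, 1272, 1875, 2198, 2499, 1222, 2465 and 2245 CPM in Tac1+ cells. In the same order Tac1-zero cells had 1031, 1024, 1122, 319.4, 1637, 666.4, 966.1, 2371, 465.2 and 295.3 CPM. Tac1+ cells were higher in 9 of 10, title number 8 being the exception, while the SD between title numbers was 1.11, just above the ratio. The median cell had 1215 CPM among Tac1+ and 286.2 CPM among Tac1-zero cells, and 88.8% of Tac1+ and 76.4% of Tac1-zero cells reached 5 counts (after thinning 83.9% of Tac1+ and 74.2% of Tac1-zero cells). The ratio lay just past the 2-fold limit. It came to 0.96 without title number 9, 0.98 without title number 10, 0.97 with a mitochondrial limit of 10% and 0.92 both with Tac1+ taken from 1 count and in cells with at least 5 Pou4f2 counts.

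Other peptides were shared by fewer cells. Of 17 genes listed as other neuropeptides, 4 were tested, 1 was called, and their median log2 ratio was 0.37. Sst, the somatostatin gene, was at 150.1 CPM in Tac1+ and 103.04 CPM in Tac1-zero cells, a log2 ratio of 0.50 with an SD of 1.82. Pnoc, the nociceptin precursor, was at 98.2 CPM in Tac1+ and 81.8 CPM in Tac1-zero cells, a log2 ratio of 0.24 (SD 1.03). Both differences were within the spread between title numbers. Adcyap1, the PACAP gene, was at 17.2 CPM in Tac1+ and 25.6 CPM in Tac1-zero cells, a log2 ratio of -0.39 (SD 1.07). Counting 16 peptide genes other than Tac1, 2 or more reached 5 counts in 70.8% of Tac1+ and 53.8% of Tac1-zero cells, and after thinning in 63.2% of Tac1+ and 45.7% of Tac1-zero cells.

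The machinery that makes peptides was present in both groups. Cpe, the trimming carboxypeptidase, was at 737.5 CPM in Tac1+ and 817.0 CPM in Tac1-zero cells, a log2 ratio of -0.15 (SD 0.61). Pcsk2, a prohormone convertase, was at 93.03 CPM in Tac1+ and 59.1 CPM in Tac1-zero cells, a log2 ratio of 0.58 (SD 1.01) with 6 of 10 title numbers higher. It reached 5 counts in 67.4% of Tac1+ cells (56.7 to 76.98) and 37.3% of Tac1-zero cells (30.7 to 44.2), and after thinning in 52.9% of Tac1+ and 34.9% of Tac1-zero cells. Scg5, which encodes the chaperone 7B2 of that convertase, was at 200.9 CPM in Tac1+ and 154.7 CPM in Tac1-zero cells, a log2 ratio of 0.36 (SD 0.81). Scg3, a granin-family sorting protein, was at 524.6 CPM in Tac1+ and 665.8 CPM in Tac1-zero cells, a log2 ratio of -0.34 (SD 0.59). Of 10 tested genes of peptide processing and dense-core vesicles 0 were called, 6 lay above 0, and the median was 0.14.

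Receptors for the peptides were not detected in these cells. Tacr1, Tacr2 and Tacr3, the tachykinin receptors, and Tac2 and Tac4, the other tachykinin genes, all had 0 counts in Tac1+ cells, which allows up to 0.108 CPM each. In Tac1-zero cells 4 of these 5 were at 0 and Tacr3 was at 0.494 CPM. Peptidases that can cut tachykinins gave 3 tested genes and 0 called. Prep was at 57.8 CPM in Tac1+ and 51.8 CPM in Tac1-zero cells, and Mme, neprilysin, was at 0.144 CPM in Tac1+ and 1.48 CPM in Tac1-zero cells.

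Slc6a4, the serotonin transporter gene whose promoter drives the label, leaned towards Tac1+ cells. It was at 144.4 CPM (139.98 to 148.96) in Tac1+ cells and 84.4 CPM (81.97 to 86.95) in Tac1-zero cells, a log2 ratio of 0.71 with an SD of 1.13. Title numbers lay between 90.2 and 397.4 CPM (median 121.4) in Tac1+ cells and between 34.5 and 151.03 CPM (median 80.6) in Tac1-zero cells. The ranges overlapped, and 9 of 10 title numbers were higher in Tac1+ cells, a count that 58 of 8583 genes reached (0.676%). At least 5 counts were present in 55.1% of Tac1+ cells (44.1 to 65.6) and 30.2% of Tac1-zero cells (24.1 to 36.9), and after thinning in 43.7% of Tac1+ and 29.03% of Tac1-zero cells. Over the alternatives the log2 ratio lay between 0.22 and 0.93. The 0.22 came where both groups were limited to cells with at least 5 Pou4f2 counts. The next lowest was 0.52, without title number 10. Slc18a2, which encodes the vesicular monoamine transporter VMAT2, was at 403.9 CPM in Tac1+ and 281.9 CPM in Tac1-zero cells, a log2 ratio of 0.50 (SD 0.60). The 5 tested genes of the serotonin list had a median of 0.17 and 0 were called.

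The genes named here from the choice of side at the optic chiasm differed by less than their spread. Zic5, a zinc-finger factor, was at 93.5 CPM in Tac1+ and 49.2 CPM in Tac1-zero cells, a log2 ratio of 0.81 (SD 1.39). The share at 5 counts or more was 43.8% of Tac1+ cells (33.3 to 54.7) and 21.7% of Tac1-zero cells (16.3 to 27.9), and after thinning 36.8% of Tac1+ and 20.4% of Tac1-zero cells. Ephb1, a receptor that turns axons back at the midline, was at 170.3 CPM in Tac1+ and 134.3 CPM in Tac1-zero cells, a log2 ratio of 0.32 (SD 0.97). Igf1, a growth factor, went the other way at 220.2 CPM in Tac1+ and 303.8 CPM in Tac1-zero cells, a log2 ratio of -0.45 (SD 1.84). The 5 tested genes of the ipsilateral list, those of axons that stay on the same side, had a median of 0.51, which ran from 0.07 to 0.77 over the alternatives, and 0 were called. Of the contralateral list, Pou4f1, a POU factor, was at 90.7 CPM in Tac1+ and 152.9 CPM in Tac1-zero cells, a log2 ratio of -0.70 (SD 0.77) with 9 of 10 title numbers lower. Isl2, a LIM-homeodomain factor of crossing RGCs, was at 14.5 CPM in Tac1+ and 37.8 CPM in Tac1-zero cells, a log2 ratio of -0.96 (SD 1.07), also lower in 9 of 10. Few cells carried it: without thinning 6.74% of Tac1+ (2.51 to 14.1) and 11.8% of Tac1-zero cells (7.78 to 16.9) reached 5 counts. Some lower title numbers lay near the floor. Isl2 was at 0.426 CPM in Tac1+ and 1.97 CPM in Tac1-zero cells of title number 3, and at 0 and 0.752 CPM in title number 8. The 8 tested genes of that list had a median of -0.21, with 6 below 0 and 0 called. Sox11, a transcription factor on the list, was at 2099 CPM in Tac1+ and 2189 CPM in Tac1-zero cells.

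Of the 16 called genes, 6 went the same way in at least 8 of 10 title numbers and are named by rule. Besides Gal these were Chkb, Chtf8, D2hgdh, Gltscr1l and, as the lower one, Adam11. Chkb, a choline kinase of phospholipid synthesis, was at 58.6 CPM (55.8 to 61.5) in Tac1+ cells and 23.6 CPM (22.3 to 24.9) in Tac1-zero cells, a log2 ratio of 1.03. It was higher in Tac1+ cells in 10 of 10 title numbers, which 8 of 8583 genes reached (0.0932%), and its SD of 0.67 was smaller than the ratio. Title numbers lay between 19.6 and 96.7 CPM (median 55.8) in Tac1+ cells and between 4.99 and 49.3 CPM (median 25.9) in Tac1-zero cells. It reached 5 counts in 46.1% of Tac1+ and 19.8% of Tac1-zero cells, and after thinning in 40.2% of Tac1+ and 16.1% of Tac1-zero cells. The log2 ratio came to 0.99, 0.91 and 0.98 without title numbers 1, 6 and 7, to 0.89 with thinned cells and to 0.92 with Tac1+ taken from 1 count. Its gene model overlaps Gm44502 and C730034F03Rik in GENCODE vM21, and reads of overlapping genes cannot be told apart here.

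Adam11, an adhesion protein of the ADAM family without protease activity, was the called gene with less transcript. It was at 24.02 CPM (22.2 to 25.9) in Tac1+ cells and 65.2 CPM (62.99 to 67.4) in Tac1-zero cells, a log2 ratio of -1.14 (SD 1.29). Tac1+ cells were lower in 9 of 10 title numbers, and the ratio was -0.96 without title number 2. At least 5 counts were present in 20.2% of Tac1+ and 33.96% of Tac1-zero cells, and after thinning in 12.6% of Tac1+ and 33.9% of Tac1-zero cells. This difference in share runs against the lean of most genes towards Tac1+ cells.

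The remaining named genes were seen in fewer cells. D2hgdh, a mitochondrial dehydrogenase of D-2-hydroxyglutarate, was at 32.4 CPM in Tac1+ and 9.66 CPM in Tac1-zero cells, a log2 ratio of 1.11 (SD 1.499) that came to 0.75 without title number 2. Chtf8, a subunit of a clamp loader of DNA replication, was at 40.7 CPM in Tac1+ and 14.2 CPM in Tac1-zero cells, a log2 ratio of 1.07 (SD 1.31) that came to 0.88 without title number 9. Gltscr1l, a subunit of a chromatin remodelling complex, was at 30.3 CPM in Tac1+ and 9.54 CPM in Tac1-zero cells, a log2 ratio of 1.04 (SD 1.45) that came to 0.65 without title number 8. Each of these ratios was within its spread and rested in part on single title numbers. In all 3 the 3 highest Tac1+ cells held between 38.9% and 41.7% of the Tac1+ counts, and Chtf8 overlaps the gene model of Has3.

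Besides Gal, 2 members of the gene lists were called. Crabp1, which binds retinoic acid in the cytoplasm, was at 2071 CPM in Tac1+ and 932.7 CPM in Tac1-zero cells, a log2 ratio of 1.14 with an SD of 1.85. The 3 highest Tac1+ cells held 41.2% of its Tac1+ counts, 7 of 10 title numbers were higher, and the ratio was 0.95 without title number 4 and 0.83 without title number 7. The share at 5 counts or more was 74.2% of Tac1+ and 56.6% of Tac1-zero cells, and after thinning 62.1% of Tac1+ and 48.9% of Tac1-zero cells. The 6 tested retinoid genes had a median of 0.13. Pcdh10, a protocadherin of cell adhesion, was at 39.2 CPM in Tac1+ and 11.5 CPM in Tac1-zero cells, but 69.1% of its Tac1+ counts lay in 3 cells and the ratio of 1.20 came to 0.75 without title number 9. The other 8 called genes, Cryz, Kctd18, 2610011E03Rik, Pafah2, Cox10, Trmu, Map7d2 and Zfp35, had log2 ratios from 1.01 to 1.43 and were higher in 5 to 7 title numbers.

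A few uncalled genes of the lists differed the same way in nearly every title number and by more than their spread. They were chosen after their values had been seen. Cntn1, a contactin of axons and synapses, was at 103.5 CPM in Tac1+ and 63.99 CPM in Tac1-zero cells, a log2 ratio of 0.62 with an SD of 0.44. It was higher in 10 of 10 title numbers, at 65.9 to 169.6 CPM in Tac1+ and 32.2 to 97.8 CPM in Tac1-zero cells. Scn3a, a sodium channel of embryonic neurons, was at 321.7 CPM in Tac1+ and 235.1 CPM in Tac1-zero cells, a log2 ratio of 0.44 (SD 0.29), higher in 9 of 10. Gabra3, a GABA-A receptor subunit, was at 9.41 CPM in Tac1+ and 32.02 CPM in Tac1-zero cells, a log2 ratio of -1.11 (SD 0.87), and was lower in 10 of 10. In that direction 20 of 8583 genes did so (0.233%). Gabra3 reached 5 counts in 8.99% of Tac1+ and 14.6% of Tac1-zero cells, which is less than 10 points apart, and after thinning in 5.75% of Tac1+ and 12.9% of Tac1-zero cells. Zeb2, a zinc-finger repressor, was at 30.8 CPM in Tac1+ and 75.7 CPM in Tac1-zero cells, a log2 ratio of -1.07 (SD 1.00), lower in 9 of 10.

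**Figure D3:**
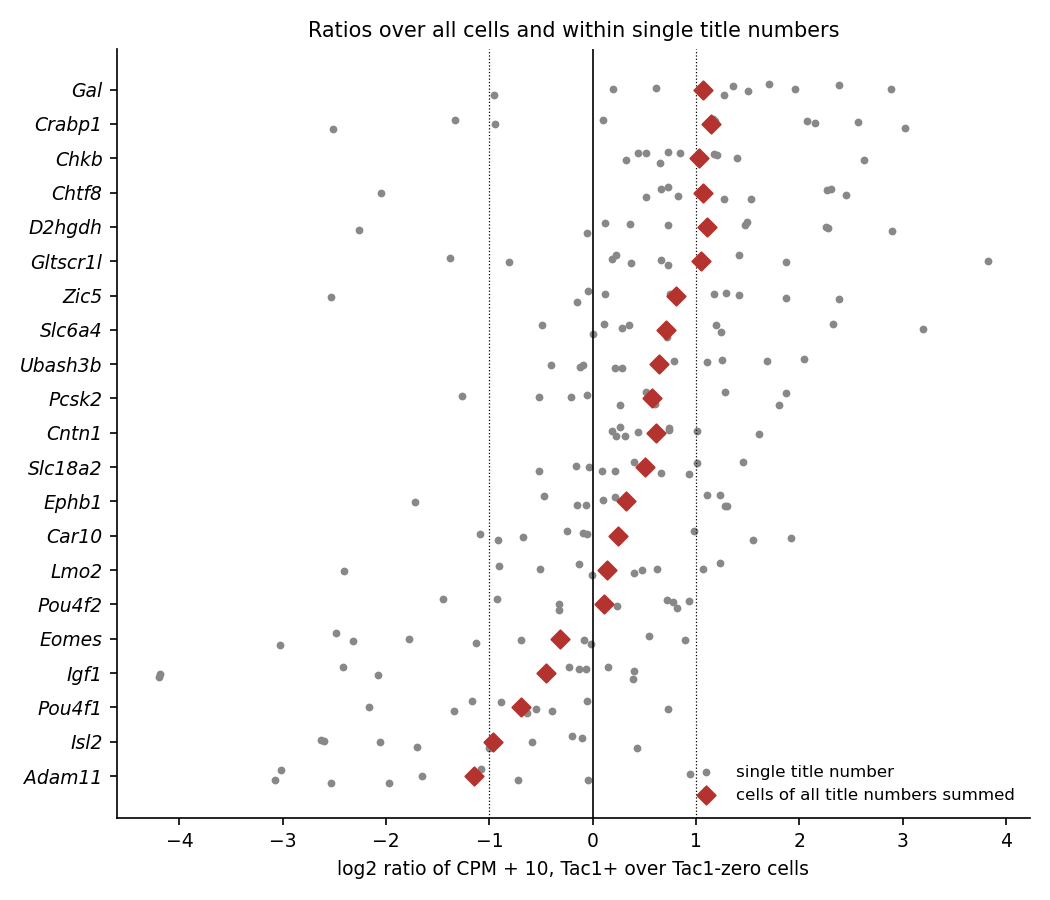
Log2 ratios of CPM + 10, Tac1+ over Tac1-zero cells, for 21 genes (grey points are single title numbers, red diamonds all cells summed, dotted lines the 2-fold limits). Chkb and Cntn1 lie above 0 in all 10 title numbers and Gal in 9, while Car10, Lmo2 and Eomes have points on both sides of 0.

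Lists on the shape and signalling of the axon showed 0 called genes, other than Pcdh10 among 11 tested cadherins and protocadherins. There were 12 tested Eph receptors and ephrins, 16 semaphorin, Slit and netrin receptors and 13 axonal adhesion molecules, with medians of -0.03, -0.07 and -0.14. Medians were 0.05 over 11 GABA, glycine and glutamate receptors, -0.21 over 4 nicotinic receptors and 0.04 over 17 voltage-gated channels. Vesicle release (16 genes) and neurofilaments, growth cone and cytoskeleton (18 genes) had medians of -0.07 and 0.01. Gap43, a growth-cone protein, was at 3881 CPM in Tac1+ and 3705 CPM in Tac1-zero cells, and Tubb3, a neuronal tubulin, at 3094 CPM in Tac1+ and 3100 CPM in Tac1-zero cells. Among 25 tested RGC subtype factors the median was 0.08 and 0 were called. Lists for ventral, dorsal, nasal and temporal retina had medians of -0.12, -0.26, -0.03 and 0.00 over 3, 3, 4 and 5 tested genes.

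Genes that respond to dissociation sat lower in Tac1+ cells. All 6 tested members of that list had a log2 ratio below 0, the median was -0.50, and 0 were called. Fos, an immediate early gene, was at 7.68 CPM in Tac1+ and 29.7 CPM in Tac1-zero cells, a log2 ratio of -1.17 (SD 1.15). The 8 tested genes of hypoxia and glycolysis had a median of -0.26. Over the alternatives the medians ran from -0.64 to -0.34 for the first list and from -0.37 to -0.11 for the second. Their part in the other differences was not tested.

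Tac1+ cells with Eomes were compared with Tac1+ cells without it to see how the labelled peptide cells vary among themselves. The 34 Tac1+ cells with at least 5 Eomes counts were set against the 41 Tac1+ cells with 0, and 14 cells with 1 to 4 were in neither set. Of 8996 genes tested, 4.08% were called higher and 2.12% lower with Eomes, in sets smaller than the groups above, so that large ratios arise more readily. The same Eomes contrast in Tac1-zero cells, 72 with Eomes and 94 without, had the same sign in 56.5% of the 558 called genes. A called gene of this contrast is therefore given with its values in Tac1-zero cells. Median totals were 301048 counts in Tac1+ cells with Eomes and 291184 in those without.

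Several genes, among them Opn4 and Tbx20, which are known from Eomes RGCs, went with Eomes in Tac1+ and in Tac1-zero cells. Igf1 was at 462.5 CPM in Tac1+ cells with Eomes and 63.7 CPM in Tac1+ cells without, a log2 ratio of 2.68, and at 677.1 CPM in Tac1-zero cells with Eomes and 72.998 CPM in those without. Opn4, melanopsin, the photopigment of intrinsically photosensitive RGCs, was at 35.1 CPM in Tac1+ cells with Eomes and 0.0795 CPM in those without, and at 27.7 CPM in Tac1-zero cells with Eomes and 0.631 CPM in those without. It reached 5 counts in 6 of 34 Tac1+ cells with Eomes (17.6%) and 0 of 41 without. Tbx20, a T-box factor, was at 32.4 CPM in Tac1+ cells with Eomes and 0.159 CPM in those without, and at 73.7 CPM in Tac1-zero cells with Eomes and 0.811 CPM in those without. Mast4, a kinase, reached 5 counts in 70.6% of Tac1+ cells with Eomes and 14.6% of those without, beside 77.8% of Tac1-zero cells with Eomes and 21.3% of those without. Rgs4, which limits G-protein signalling, was at 391.04 CPM in Tac1+ cells with Eomes and 15.99 CPM in those without, and at 227.6 CPM in Tac1-zero cells with Eomes and 60.7 CPM in those without. Of the 6 title numbers with at least 3 Tac1+ cells of both sets, Rgs4, Igf1 and Mast4 were higher with Eomes in 6, Tbx20 in 4 and Opn4 in 4, with Opn4 lower in 1.

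Car10 went the other way, at 5.03 CPM in Tac1+ cells with Eomes and 55.4 CPM in those without, a log2 ratio of -2.12. In Tac1-zero cells it was at 14.4 CPM with Eomes and 26.04 CPM without. At least 5 counts were present in 2 of 34 Tac1+ cells with Eomes (5.88%, 0.720 to 19.7) and 11 of 41 without (26.8%, 14.2 to 42.9). Khdrbs2, an RNA-binding splicing regulator, was also lower with Eomes, at 52.9 CPM in Tac1+ cells with Eomes and 228.5 CPM in those without. In Tac1-zero cells it was at 64.4 CPM with Eomes and 129.7 CPM without.

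Tac1 had a median of 38 counts in Tac1+ cells with Eomes and 37 in those without. Its summed level was 163.4 CPM (155.9 to 171.2) in Tac1+ cells with Eomes and 229.998 CPM (221.7 to 238.5) in those without, a log2 ratio of -0.47. The genes that leaned towards Tac1+ cells were looked at again within each set of the Eomes limit. This did not level Eomes itself, which among cells with at least 5 Eomes counts was at 414.3 CPM in Tac1+ and 585.2 CPM in Tac1-zero cells. Among cells with Eomes, 2.7% of 8873 genes were called higher and 1.07% lower in Tac1+ cells. Among cells without Eomes, 2.15% of 8242 genes were called higher and 0.667% lower. Gal was at 1464 CPM in Tac1+ and 854.0 CPM in Tac1-zero cells with Eomes, a log2 ratio of 0.77. Without Eomes it was at 2800 CPM in Tac1+ and 1198 CPM in Tac1-zero cells, a log2 ratio of 1.22. The direction was thus shared, as it was for Ubash3b (0.66 with Eomes and 0.73 without), Slc6a4 (0.81 and 0.60), Chkb (1.22 and 0.43) and, as lower, Adam11 (-1.10 and -1.06). These genes were chosen for their difference over all cells, and both sets are parts of the same cells. A shared direction is therefore no separate support for them.

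For other genes the ratios lay further apart between the Eomes sets. Pcsk2 was at 74.8 CPM in Tac1+ and 55.3 CPM in Tac1-zero cells with Eomes, a log2 ratio of 0.38. Without Eomes it was at 111.7 CPM in Tac1+ and 39.4 CPM in Tac1-zero cells, a log2 ratio of 1.30, and reached 5 counts in 82.9% of Tac1+ (67.9 to 92.8) and 32.98% of Tac1-zero cells (23.6 to 43.4). Cntn1 had log2 ratios of -0.05 with Eomes and 1.03 without, and Zic5 had 1.53 with Eomes and 0.59 without. Pou4f1 and Isl2 changed direction, with log2 ratios of 0.29 and 0.76 with Eomes and -1.22 and -1.18 without. Among cells with Eomes, Isl2 reached 5 counts in only 8.82% of Tac1+ and 2.78% of Tac1-zero cells. Whether these ratios differ between the sets was not tested.

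**Figure D4:**
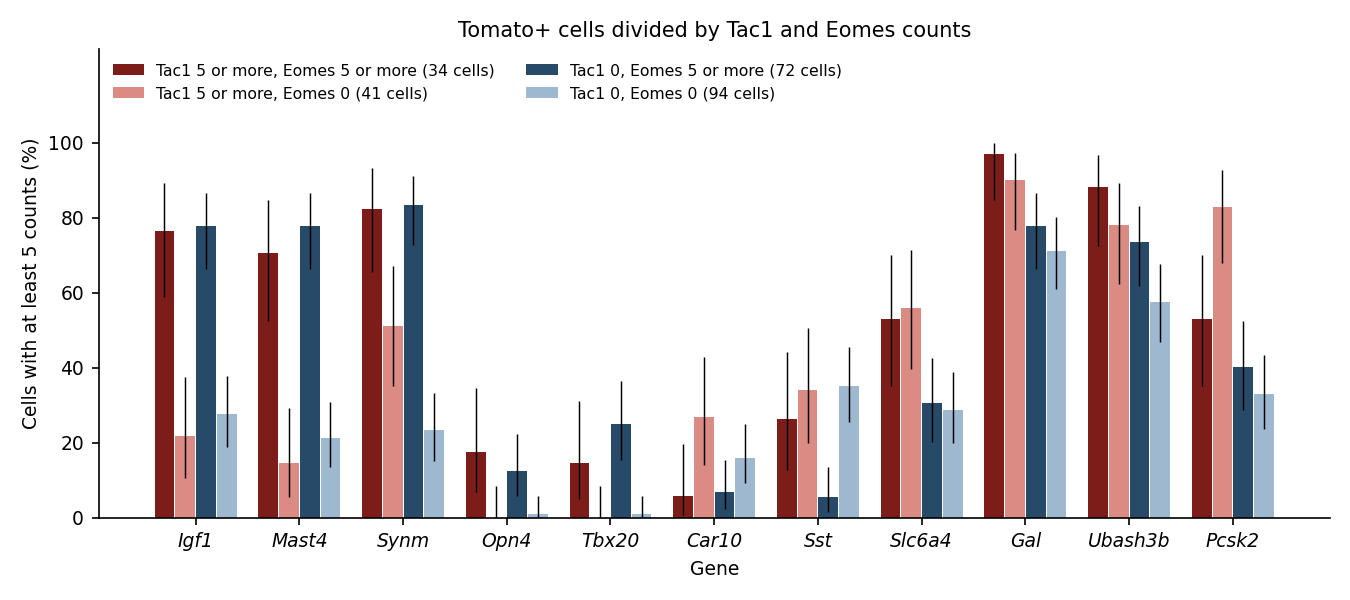
Share of Tomato+ cells with at least 5 counts of 11 genes in 4 classes by Tac1 and Eomes (34, 41, 72 and 94 cells, bars with exact 95% intervals, shares not thinned). Igf1, Mast4, Opn4 and Tbx20 follow Eomes in Tac1+ and Tac1-zero cells alike, while Slc6a4 and Gal have higher shares in both Tac1+ classes drawn than in both Tac1-zero classes drawn. Cells with 1 to 4 Eomes counts are not drawn; among them 64.3% of 14 Tac1+ and 84.8% of 46 Tac1-zero cells reached 5 Gal counts.

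The amount of Tac1 per cell varied together with depth and with a few of these genes. Tac1+ cells with 5 to 19, 20 to 49 and at least 50 Tac1 counts were 22, 35 and 32 cells, with median totals of 249450, 279418 and 335131 counts. Slc6a4 was at 82.6, 126.04 and 192.5 CPM in these bins, the lowest of which is near the 84.4 CPM of Tac1-zero cells. Gal was at 1646, 1848 and 2480 CPM, each above the 980.4 CPM of Tac1-zero cells. Zic5 was at 29.7, 100.1 and 119.3 CPM, the lowest bin being under the 49.2 CPM of Tac1-zero cells. Ubash3b stayed level at 448.8, 507.9 and 446.8 CPM, and Eomes at 176.4, 168.2 and 155.2 CPM. The part of depth in these orders was not tested.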

How the data were processed

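Single-cell libraries of E15.5 Sert-Cre mouse retina were analysed, 400 Tomato+ and 400 Tomato- cells, grouped by the genotype label. The deposited table holds whole-number counts, not normalised. Its headers say "umi", the labels name SmartSeq2, and no source used here says whether reads or molecules were counted; kept Tomato+ cells had a median nonzero count of 19. Per the submitters' processing notes, Seurat 2.3, R 3.4.4 and mm10 were used; the aligner and counter are not given in the sources used here. The table has 801 columns, of which 1 has no matching label and was left aside. After the filter 327 Tomato+ cells were kept (89 Tac1+, 212 Tac1-zero and 26 between) and 362 Tomato- cells. The 93 rows with a repeated symbol stayed in totals only, and 0 cell columns were identical. No doublet caller was run.

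CPM of summed counts, log2 ratios (pseudocount 10 CPM), Poisson and Clopper-Pearson 95% intervals and thinning were computed in Python 3.11.15 with numpy 2.4.6, pandas 2.3.3 and scipy 1.17.1. Tested genes had at least 5 counts in at least 10% of either group; Tac1 and repeated symbols were left out, a choice made after values had been seen. TMM factors came from edgeR 4.0.16 and median-of-ratios factors from DESeq2 1.42.0 in R 4.3.3. The contrast was first tested on simulated data.

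Cells, gene lists and tests were chosen with earlier results of these data known. Named by rule are the label genes, Eomes, Slc6a4, called genes with 1 direction in at least 8 of 10 title numbers whose names are not clone-like, called members of the lists, and list members with the highest CPM. The pattern that passes over clone-like names was corrected after values had been seen, which added D2hgdh. Nxph4, no neuropeptide, was left out of the count of peptides per cell. Genes shown beyond the rule were chosen after their values were seen. Alternatives covered pseudocount, scaling, cell weighting, filters, thinning, the Tac1 limit, each title number left out, the mitochondrial limit, globin-rich cells and Eomes or Pou4f2 subsets; the 2-fold limit alone and a limit of 4000 genes were added after seeing the data. Gene positions are from RefSeq (GRCm38.p6), overlaps from GENCODE vM21.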

Additional observations from a re-analysis of the deposited data

How the results depend on the processing

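The 15 genes called higher and the 1 called lower in Tac1+ cells became 68 and 2 with a pseudocount of 1 CPM, 7 and 8 with thinned cells, 6 and 2 with Tac1+ taken from 1 count, 28 and 5 from 20 counts, and 29 and 8 from 5 counts after thinning. They became 70 and 32 in cells with under 5 Eomes counts, 53 and 14 in cells with at least 5 Pou4f2 counts, and 27 and 35 by the 2-fold limit alone. Genes called lower numbered 4 without title numbers 8 and 10, 3 with a mitochondrial limit of 10%, 2 without globin-rich cells and 12 in cells with at least 4000 genes. Leaving out each title number in turn gave 15 to 32 genes higher and 2 to 8 lower. The cause of these moves was not tested; subsets hold fewer cells. Counts of called genes are thus no firm measure of how far Tac1+ cells stand apart.

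The share of Tac1+ cells was 35.2% from 1 Tac1 count, 20.5% from 20 counts and 34.3% in cells with at least 4000 genes, and 25.7 to 28.3% with a title number left out. The share of Tac1+ cells with Eomes was 27.5% where cells were thinned before Tac1 and Eomes were read and 53.9% from 1 Eomes count, and 34.7 to 40.5% with a title number left out. The share with Eomes was 41.8% without title numbers 8 and 10. The log2 ratio lay under the 2-fold limit in 4 of 15 alternatives other than leaving out 1 title number for Gal, 3 for Chkb, 5 for D2hgdh, 6 for Chtf8, 8 for Gltscr1l, 1 for Crabp1, 3 for Pcdh10 and 0 for Adam11. In 1075 settings for single genes and list medians the value moved by less than the SD between title numbers. This limit is wide, since that SD had a median of 0.99 and log2 ratios an SD of 0.34 over genes. Staying within it therefore says little about stability. Signs changed in some settings, among them 1 each for Car10, Lmo2 and Eomes. The median of voltage-gated channels changed sign in 9 settings and that of the temporal list in 11. Over all alternatives Gal stayed between 0.92 and 1.29, Chkb between 0.89 and 1.28, Ubash3b between 0.48 and 0.76 and Adam11 between -1.45 and -0.96. Eomes reached 0.10 with Tac1+ taken from 1 count. With TMM and median-of-ratios factors the ratio of Gal was 1.09 and 1.10 in place of 1.07. Depth limits genes seen in few cells, and 1 pool without animals limits all comparisons. No paired analysis was possible because the cells compared are from 1 sample and no test was made.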
